A study of Mus musculus with 6 samples.

Results

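Mitochondria are joined, divided and moved along the cytoskeleton by a small set of membrane proteins, and the mRNAs of 8 of these were followed in mouse muscle with and without the transcription factor TFEB. The genes were Mfn1, Mfn2, Opa1, Dnm1l, Fis1, Rhot1, Rhot2 and Parl. They were taken by name and not by a cutoff on their values, but with earlier results of these data known. Every probe set that the platform annotation assigned to one of them alone was kept. This gave 15 probe sets of the 22626 tested, and 8 of the 12393 genes that had at least 1 such probe set, so that 0 members lacked one. Muscle was taken from C57BL/6 mice aged 1 month, 3 labelled wildtype (WT) and 3 labelled TFEB KO, and the total RNA of each mouse was hybridised to 1 Affymetrix array. Within a group the mice are biological replicates per the labels, which do not name the muscle. According to the methods of the study, TFEB KO mice came from a cross of mice with a floxed Tcfeb gene, the mouse gene for TFEB, with mice whose Cre recombinase is driven by the MLC1f muscle promoter. Cells of the tissue other than muscle fibers therefore keep the gene, and the sources used here do not say whether WT mice carried floxed alleles.

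Mitochondrial fusion is carried out by dynamin-related GTPases, with the mitofusins acting on the outer membrane and OPA1 on the inner one, and OPA1 also holds the cristae junctions tight. Fission is carried out by DRP1, the product of Dnm1l, a cytosolic GTPase that is recruited to the outer membrane and constricts it. The Miro GTPases, encoded by Rhot1 and Rhot2, tether mitochondria to motor proteins. In skeletal muscle the organelles lie in fixed rows between the myofibrils and beneath the fiber membrane, and their fusion is known to matter for muscle mass and for the upkeep of mitochondrial DNA.

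All 15 probe sets had a lower mean in TFEB KO than in WT muscle, and 0 of them passed the test. The median difference was -0.29 on the log2 scale, against -0.02 over all probe sets, of which 54.4% lay below 0. The lowest adjusted p was 0.064, for Rhot2, and 1.60% of all probe sets passed the same threshold (adjusted p under 0.05, limma). The fusion genes Mfn1, Mfn2 and Opa1, the transport gene Rhot2 and the protease gene Parl were 1.28-fold to 1.41-fold lower on their probe set of lowest p, and by the same choice the fission gene Dnm1l was 1.69-fold lower, although its brightest probe set differed by -0.01. The fission adaptor Fis1, with 1 probe set, also differed by -0.01. At an unadjusted p under 0.05, 9 of the 15 probe sets were lower and 0 were higher, where 9.40% of all probe sets were lower at that threshold. The 3 TFEB KO arrays lay below the 3 WT arrays without overlap on 9 probe sets and above them on 0, whereas 13.3% of all probe sets had every TFEB KO array below every WT array.

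The labels were first checked on Tfeb itself, the targeted gene. Its log2 value was 8.61, 8.55 and 8.96 in WT muscle, against 7.10, 7.23 and 7.04 with TFEB deleted. It fell by 1.58 ± 0.13 (SE, n = 3 per group), which is 2.99-fold, with an adjusted p of 0.0079. Its position relative to the floxed exons was not tested. Arrays of a group correlated at 0.992 to 0.997 over all probe sets, and arrays of different groups at 0.989 to 0.993.

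The shift of the members was carried by all 3 TFEB KO arrays. Each probe set was set against its own WT mean, and the median over the 15 probe sets was -0.26, -0.25 and -0.29 in TFEB KO 1, 2 and 3, against 0.04, 0.02 and -0.03 in WT 1, 2 and 3. The same medians over all probe sets lay between -0.05 and 0.01 in the 6 arrays. The median of the members therefore lay below that of all probe sets in each TFEB KO array. The WT medians lie near 0 because each probe set was set against its WT mean. Single members did not all follow. Fis1 read 10.72 in TFEB KO 3, and Dnm1l on 1428086_at read 10.25 in TFEB KO 1, each above every WT array.

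**Figure D1:**
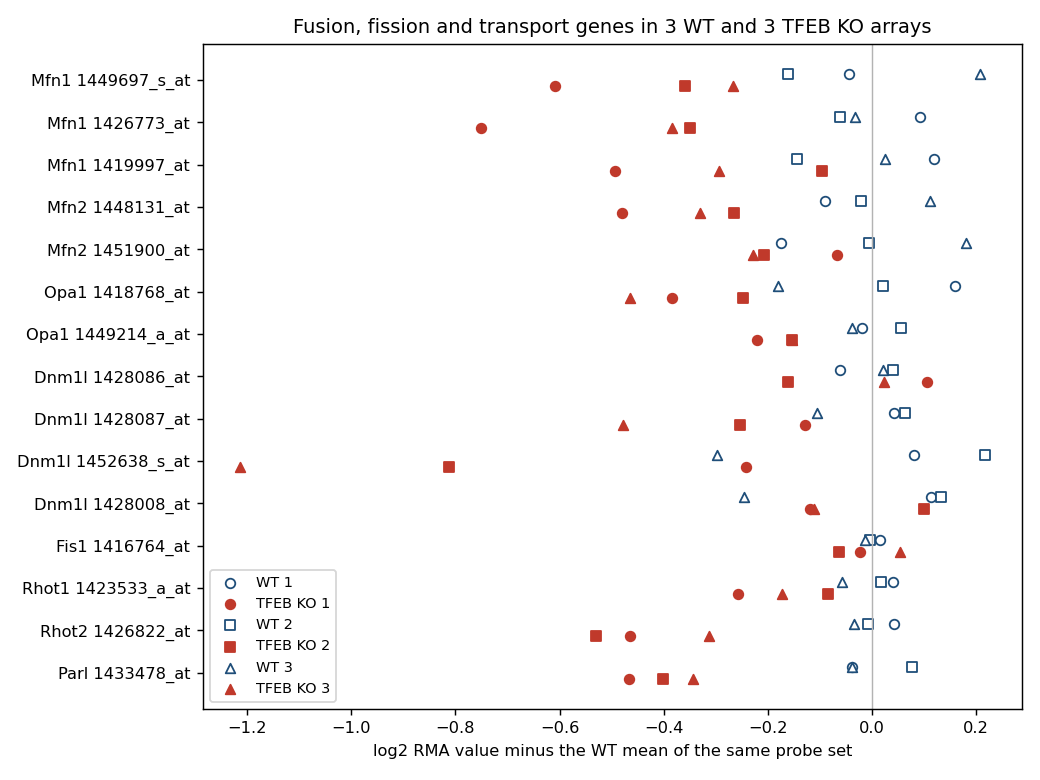
Log2 RMA value of each of the 15 probe sets minus its own WT mean (horizontal axis), with open points for the 3 WT arrays, filled points for the 3 TFEB KO arrays, a shape for each replicate number and a grey line at 0. The filled points lie left of the open ones for Rhot2, Parl, Mfn2 on 1448131_at and Mfn1 on 1449697_s_at and 1426773_at, whereas the points of Fis1 are mixed.

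Mfn1 and Mfn2 encode the mitofusins, the outer-membrane GTPases that tether neighbouring mitochondria and draw them together. Mfn1 had 3 probe sets. On 1426773_at it read 10.97, 10.81 and 10.84 in WT and 10.12, 10.52 and 10.49 in TFEB KO muscle. The highest TFEB KO array thus lay below the lowest WT array, and TFEB KO 1 was the lowest. The difference was -0.49 ± 0.12 (SE, n = 3 per group), or 1.41-fold lower, with a 95% interval from -0.78 to -0.21 and an adjusted p of 0.096. The brightest Mfn1 probe set, 1449697_s_at, read 11.06, 10.94 and 11.31 in WT and 10.50, 10.75 and 10.84 in TFEB KO muscle, a difference of -0.41 ± 0.13 with an adjusted p of 0.163. Here too the groups did not overlap. The third, 1419997_at, differed by -0.29 ± 0.13 (adjusted p = 0.280), and TFEB KO 2, at 7.21, lay above WT 2, at 7.16. The 3 probe sets of Mfn1 thus gave the same direction, with intervals that all lay below 0 before adjustment.

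Mfn2 encodes the mitofusin that also ties mitochondria to the endoplasmic reticulum. On 1448131_at it read 11.74, 11.81 and 11.94 in WT and 11.35, 11.57 and 11.50 in TFEB KO muscle. Every TFEB KO array was lower than every WT array. The difference was -0.36 ± 0.10 (SE, n = 3 per group), or 1.28-fold lower, with a 95% interval from -0.59 to -0.13 and an adjusted p of 0.125. A second probe set, 1451900_at, was dim, with a mean below the 25th percentile of all probe sets (4.69 on the log2 scale). It ranged from 3.62 to 4.03 over the 6 arrays, the groups overlapped, and the difference was -0.17 ± 0.11 (adjusted p = 0.507).

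Opa1 encodes the GTPase that fuses the inner membrane. On 1418768_at it read 8.13, 7.99 and 7.79 in WT and 7.59, 7.73 and 7.51 in TFEB KO muscle. The groups did not overlap, although only a narrow gap separated WT 3 from TFEB KO 2. The difference was -0.37 ± 0.12 (SE, n = 3 per group), or 1.29-fold lower, with an adjusted p of 0.158. On 1449214_a_at, a probe set of several transcripts of the gene, Opa1 read 7.82, 7.90 and 7.80 in WT and 7.62, 7.69 and 7.69 in TFEB KO muscle. These groups did not overlap either, with SDs of 0.05 and 0.04, but the difference was smaller, at -0.18 ± 0.09 with a 95% interval from -0.37 to 0.02 (adjusted p = 0.345).

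Among the fission genes the picture depended on the probe set. Dnm1l had 4. The brightest, 1428086_at, read 10.08, 10.19 and 10.17 in WT and 10.25, 9.99 and 10.17 in TFEB KO muscle. The groups were interleaved, with a difference of -0.01 ± 0.10 (SE, n = 3 per group), a 95% interval from -0.24 to 0.22 and an adjusted p of 0.973. On 1428087_at the gene read 9.02, 9.04 and 8.88 in WT and 8.85, 8.73 and 8.50 in TFEB KO muscle, without overlap, and differed by -0.29 ± 0.11 (adjusted p = 0.245). The largest difference of the 15 probe sets was that of 1452638_s_at, which read 6.89, 7.03 and 6.52 in WT and 6.57, 6.00 and 5.60 in TFEB KO muscle. Its suffix, also that of Mfn1 on 1449697_s_at, marks probes shared by several transcripts, which in this notation can belong to different genes. TFEB KO 1 lay above WT 3 on it, so that the groups overlapped. The difference was -0.76 ± 0.24, or 1.69-fold lower, with a 95% interval from -1.30 to -0.21 and an adjusted p of 0.156. Without TFEB KO 1 it was -1.01 with an adjusted p of 0.044. The fourth probe set, 1428008_at, was dim, at 2.79 to 3.17 over the 6 arrays, and differed by -0.04 ± 0.13 (adjusted p = 0.902).

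Within each array, the value of Dnm1l on 1452638_s_at was set against its value on 1428086_at. The gap between them was wider by 0.75 in TFEB KO than in WT muscle on the log2 scale (exact permutation test, two-sided, p = 0.10). That is the smallest p that 3 arrays against 3 allow, and it was 0.13 after Benjamini-Hochberg adjustment over the 4 such contrasts made. This contrast was chosen after the values of the 4 probe sets had been seen, as that of the largest difference against the brightest probe set, and is a description.

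Fis1, the outer-membrane anchor first linked to recruitment of DRP1, had a single probe set, 1416764_at. It read 10.69, 10.67 and 10.66 in WT and 10.65, 10.61 and 10.72 in TFEB KO muscle. The values were mixed between groups, with the highest and the lowest both from TFEB KO arrays. The difference was -0.01 ± 0.08 (SE, n = 3 per group), with an adjusted p of 0.968. The 95% interval, from -0.20 to 0.18, holds the values of Opa1 on 1449214_a_at (-0.18), Rhot1 (-0.17) and Mfn2 on 1451900_at (-0.17). It also holds those of Dnm1l on 1428086_at (-0.01) and 1428008_at (-0.04), but not those of Rhot2, Parl or the other member probe sets. The errors of those values were not taken into account. Against Fis1 in the same array, the brightest probe set of Mfn1 was lower by a further 0.40 in TFEB KO muscle, with each TFEB KO array below each WT array (exact permutation test, two-sided, p = 0.10, adjusted 0.13). This contrast was also chosen after the values had been seen, and is a description.

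The transport genes Rhot1 and Rhot2 encode the Miro GTPases, which sense calcium and link the outer membrane to kinesin and dynein through adaptors. Rhot2 had 1 probe set, 1426822_at, which read 9.28, 9.23 and 9.21 in WT and 8.77, 8.71 and 8.93 in TFEB KO muscle. The WT arrays were tightly grouped, with an SD of 0.04, and the highest TFEB KO array lay well below them. The difference was -0.44 ± 0.09 (SE, n = 3 per group), or 1.35-fold lower, with a 95% interval from -0.65 to -0.22 and an adjusted p of 0.064. With 1 array left out in turn it stayed between -0.50 and -0.39.

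Rhot1, on 1423533_a_at, read 9.73, 9.70 and 9.63 in WT and 9.43, 9.60 and 9.51 in TFEB KO muscle. The groups did not overlap, but the difference was smaller, at -0.17 ± 0.09 (SE, n = 3 per group), with a 95% interval from -0.38 to 0.04 and an adjusted p of 0.387. Within arrays, Rhot2 was lower than Rhot1 by a further 0.26 in TFEB KO muscle, and the groups did not overlap on this gap (exact permutation test, two-sided, p = 0.10, adjusted 0.13). The corresponding contrast of the mitofusins, Mfn1 against Mfn2 on their brightest probe sets, was -0.05 (p = 0.80, exact permutation test), so that no difference between the mitofusins was detectable with 3 arrays per group. Both contrasts were chosen after the values had been seen, and are descriptions.

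Parl encodes a rhomboid protease of the inner membrane that cleaves PINK1 and PGAM5 and was first tied to the processing of OPA1. On 1433478_at, its sole probe set, it read 9.94, 10.06 and 9.94 in WT and 9.51, 9.58 and 9.63 in TFEB KO muscle. The groups were clearly apart, with SDs of 0.07 and 0.06. The difference was -0.40 ± 0.09 (SE, n = 3 per group), or 1.32-fold lower, with a 95% interval from -0.61 to -0.20 and an adjusted p of 0.067. With 1 array left out in turn it stayed between -0.43 and -0.37.

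Rhot2 and Parl lay close to the threshold, and the call depended on the setting. When the probe sets of each gene were averaged first and 1 value per gene was tested, Rhot2 had an adjusted p of 0.046 and Parl one of 0.048, with the same differences as before, since each has 1 probe set. On that gene level Mfn1 differed by -0.40 (adjusted p = 0.116), Mfn2 by -0.26 (0.185), Opa1 by -0.27 (0.154), Dnm1l by -0.27 (0.258), Rhot1 by -0.17 (0.337) and Fis1 by -0.01 (0.962).

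**Figure D2:**
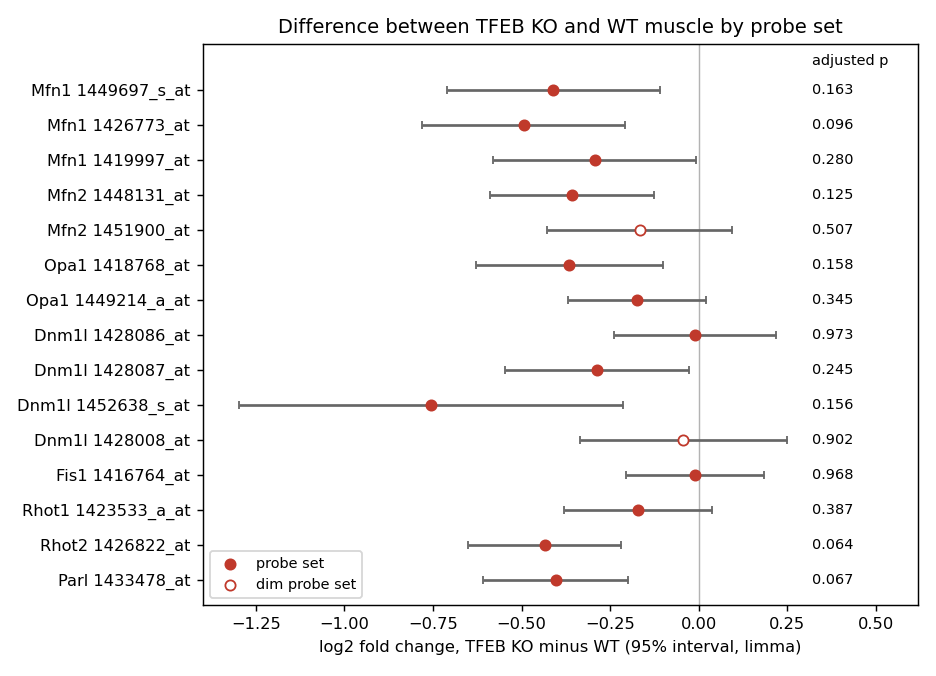
Log2 difference, TFEB KO minus WT, of each of the 15 probe sets with its 95% interval from limma (n = 3 arrays per group) and its adjusted p at the right, with open points for the 2 dim probe sets. Every point lies below 0, from -0.76 for Dnm1l on 1452638_s_at to -0.01, and the intervals of Fis1, Rhot1 and 4 further probe sets include 0.

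**Figure D3:**
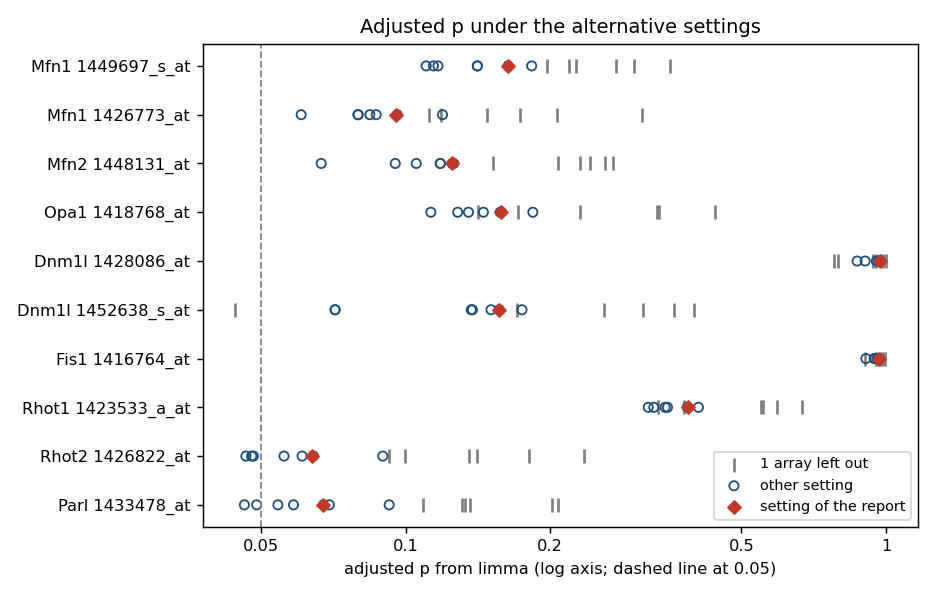
Adjusted p on a log axis, for the brightest probe set of each member and 1 more each of Mfn1 and Dnm1l, for the setting of the report (diamonds), 7 other settings of limma (circles) and the 6 fits that leave out 1 array (bars), with a dashed line at 0.05. Rhot2 and Parl have circles on both sides of the line, and 1 bar of Dnm1l on 1452638_s_at lies to its left.

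The sequence upstream of the start of transcription was read for all 8 members from the RefSeq promoter table (GRCm38.p6), which holds 12 windows for them and 32851 in all. Binding of TFEB is known at E-box sequences of the CLEAR type, so the 250 bases before each start were searched on both strands for CACGTG, for the longer TCACGTGA, which contains it, and for CATGTG. The first was in 0 of the 12 windows, and in 6.02% of all windows. TCACGTGA was in 0, against 0.785% of all, and CATGTG, whose reverse is CACATG, in 0, against 12.3% of all. The CCGGAAGT core known from ETS factors such as GABP, with ACTTCCGG as its reverse, was in 3 of the 12 windows and in 2.88% of all. This motif was searched after the windows had been read, so the share is a description. The windows with the core are shown with it in capitals, together with that of Rhot2, which holds none of these letters and had the lowest p.
Mfn1 chr3:32529232-32529481 plus strand: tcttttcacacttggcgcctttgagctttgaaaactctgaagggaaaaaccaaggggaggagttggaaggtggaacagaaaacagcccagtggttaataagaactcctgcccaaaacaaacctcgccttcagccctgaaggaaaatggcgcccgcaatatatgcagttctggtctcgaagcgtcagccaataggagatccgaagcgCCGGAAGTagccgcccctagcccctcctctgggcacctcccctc
Fis1 chr5:136953025-136953274 plus strand: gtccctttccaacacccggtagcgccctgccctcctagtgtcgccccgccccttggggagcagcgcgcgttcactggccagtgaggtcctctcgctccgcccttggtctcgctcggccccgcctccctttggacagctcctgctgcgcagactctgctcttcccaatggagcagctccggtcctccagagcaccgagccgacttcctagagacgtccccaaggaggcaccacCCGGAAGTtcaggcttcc
Parl chr16:20302363-20302612 minus strand: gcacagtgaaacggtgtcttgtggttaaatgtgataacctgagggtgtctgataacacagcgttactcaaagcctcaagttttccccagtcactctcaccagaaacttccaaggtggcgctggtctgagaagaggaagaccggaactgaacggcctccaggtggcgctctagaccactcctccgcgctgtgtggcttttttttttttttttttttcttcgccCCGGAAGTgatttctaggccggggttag
Rhot2 chr17:25844526-25844775 minus strand: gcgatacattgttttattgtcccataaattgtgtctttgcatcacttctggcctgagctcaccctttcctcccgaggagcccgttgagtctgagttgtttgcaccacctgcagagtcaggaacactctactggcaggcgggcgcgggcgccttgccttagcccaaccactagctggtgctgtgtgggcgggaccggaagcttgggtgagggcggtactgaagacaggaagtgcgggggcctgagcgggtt
The core began 44 bases before the start in Mfn1, 28 bases before it in Parl and 18 bases before it in Fis1. It was thus present in Mfn1 and Parl, which were lower in every TFEB KO array on 1426773_at and 1433478_at, and in Fis1, whose groups overlapped. The study lists a site of the CLEAR type for mouse Rhot2, cggtCATGTGggtg with its core in capitals. That core is not in the Rhot2 window shown, and the listed position was not compared with the window. For mouse Parl the study lists none. Its list covers mitochondrial genes that the study reports as downregulated in TFEB KO muscle, so it counts Rhot2 and Parl among them. Here both missed the threshold, with adjusted p of 0.064 and 0.067 (limma), and the reason for this difference was not tested. Absence of these letters says only that they are not in these windows.

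Other genes of the machinery were counted in 6 lists, which hold 64 genes. Of these, 52 had probe sets of their own, 119 in all, and 0 passed the test in either direction. At an unadjusted p under 0.05, 22 of the 119 were lower and 6 higher, and the groups did not overlap on 29 lower and 10 higher probe sets. Over all probe sets, 9.40% were lower at that threshold and 13.3% were lower without overlap. The shares of all probe sets that were higher were not taken, so the counts of higher probe sets, here and by list, have no background. The medians of the lists ranged from -0.17 to 0.06 on the log2 scale, against -0.29 for the 8 members.

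Of the partners of the fusion GTPases, 7 of 9 were measured on 18 probe sets, with a median of -0.08, 1 lower and 0 higher at an unadjusted p under 0.05. Mtch2, an outer-membrane carrier-like protein, differed by -0.20 on 1448654_at (adjusted p = 0.273) and by -0.11 on its brightest probe set. Opa3, whose product is needed for normal mitochondrial shape, differed by -0.24 on 1455131_at (adjusted p = 0.297) and by -0.08 on its other probe set. Of the proteases and prohibitins that process or hold OPA1, 6 of 7 were measured on 12 probe sets, with a median of -0.16, 4 lower and 1 higher. Afg3l2, a subunit of the matrix AAA protease, differed by -0.33 on 1427207_s_at (adjusted p = 0.147) and by -0.29 on its other probe set. Oma1, the stress-activated protease that cleaves OPA1, differed by -0.24 (adjusted p = 0.235). Both genes were lower in every TFEB KO array than in every WT array on these probe sets.

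Fission adaptors and regulators gave no common direction. Of 16 genes, 12 were measured on 32 probe sets, with a median of -0.07, 3 lower and 3 higher at an unadjusted p under 0.05. Ppp3cb, a catalytic subunit of calcineurin, the phosphatase that activates DRP1, was higher by 0.51 on 1433835_at (adjusted p = 0.056) and lower by 0.19 on its brighter probe set. Dnm2, a dynamin, differed by -0.67 on 1432004_a_at (adjusted p = 0.057), whereas its other 6 probe sets lay between -0.29 and -0.07. Here too the probe sets of 1 gene gave different values.

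Of the transport adaptors and motors, 9 of 11 were measured on 25 probe sets, with a median of 0.06, 4 lower and 1 higher. Trak1, the adaptor that joins Miro to kinesin, read 7.78, 7.79 and 7.63 in WT and 7.14, 7.51 and 7.00 in TFEB KO muscle on 1452742_at, a difference of -0.52 (adjusted p = 0.104), with -0.27 on its other probe set. Myo19, the myosin that moves mitochondria on actin, differed by -0.55 (adjusted p = 0.058). On these probe sets both genes were lower in every TFEB KO array than in every WT array, while 12 of the 25 probe sets of the list lay below 0.

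The MICOS complex, which shapes cristae junctions and works with OPA1, had 9 of 10 genes measured on 20 probe sets, with a median of -0.17, 8 lower and 1 higher at an unadjusted p under 0.05. Immt, its core subunit mitofilin, differed by -0.49 on 1429533_at (adjusted p = 0.092) and by -0.24 and -0.20 on its other probe sets. Dnajc11, a partner of MICOS, differed by -0.38 on 1433880_at (adjusted p = 0.085) and by -0.15 on its other probe set. Of the substrates of PARL and the mitophagy genes, 9 of 11 were measured on 12 probe sets, with a median of -0.06, 2 lower and 0 higher. Clpb differed by -0.28 on 1454168_a_at (adjusted p = 0.195) and by -0.15 on its brighter probe set, where the groups overlapped. Pink1, the kinase that PARL cleaves, differed by -0.32 (adjusted p = 0.252).

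**Figure D4:**
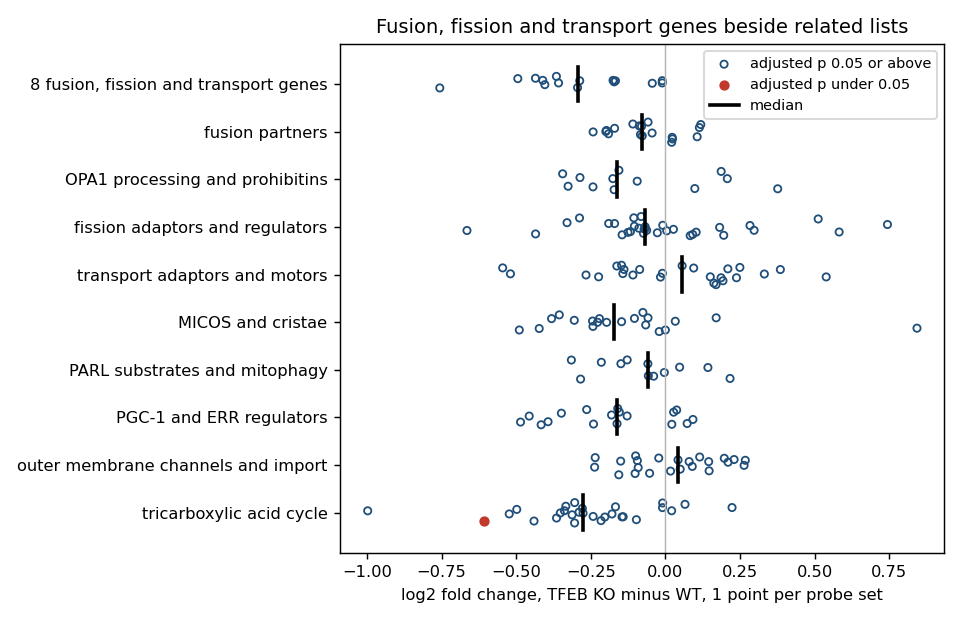
Log2 difference, TFEB KO minus WT, of every probe set of the 8 members, of the 6 lists of related machinery and of the lists used for comparison, with 1 point per probe set, a black line at each median and a filled point where the adjusted p was under 0.05. The 15 points of the members all lie below 0, whereas the points of the fission and transport lists lie on both sides.

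For comparison, 3 lists of other mitochondrial genes were set beside the members. The citrate cycle came closest, with 17 of 18 genes on 28 probe sets, a median of -0.28, 16 lower and 0 higher at an unadjusted p under 0.05, and 1 probe set past the test. That was Cs, citrate synthase, which fell by 0.61 on 1422577_at (adjusted p = 0.028), with -0.33 and -0.36 on its other probe sets. Outer membrane channels and import genes, which share the membrane of the mitofusins and Miro proteins, had a median of 0.04 over 23 probe sets, with 2 lower and 1 higher. Of these, Mtx2 differed by 0.26 (adjusted p = 0.216) and Mtx1 by -0.24 (adjusted p = 0.233). PGC-1 and ERR factors are known to drive Mfn2 transcription in muscle. Their list, which also holds Nrf1, Gabpa and Tfam, had a median of -0.16 over 17 probe sets, with 5 lower and 0 higher. The 5 were all of Ppargc1a and Ppargc1b. Ppargc1a differed by -0.39 on 1437751_at (adjusted p = 0.067) and Ppargc1b by -0.46 (adjusted p = 0.111). By quantitative PCR the study found the expression of both unaffected by TFEB deletion.

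In bulk tissue, fewer cells of a type and less RNA per cell cannot be told apart. The 12 markers of muscle fibers hold Acta1, Ckm and Des, genes of all fiber types, but are mostly genes of fast fibers, such as Myh4 and Actn3. Of these 12, 0 passed the test, and they do not stand for slow fibers. Their mean log2 value, over the brightest probe set of each gene, lay at 14.40 to 14.46 in WT and 14.41 to 14.45 in TFEB KO muscle. These values lie near the highest of the arrays, 14.93, and whether they were saturated was not tested. Markers of other cells did move. Of 12 macrophage genes 6 rose, among them Mpeg1 by 1.75 and Cd163 by 1.09, and 0 fell, and their mean was 6.73 to 7.39 in WT and 7.91 to 8.52 in TFEB KO muscle. Of 10 endothelial genes 4 fell, with Rasip1 the furthest at -0.96, and 0 rose, with means of 7.55 to 7.74 and 7.00 to 7.15. Of 5 measured Schwann cell genes 1 fell, with means of 8.27 to 8.43 and 7.64 to 7.93. Of 10 markers of slow, mitochondria-rich fibers 0 passed the test, 9 of their 19 probe sets were lower at an unadjusted p under 0.05, and their mean was 12.01 and 12.16 in WT 1 and WT 2, 11.03 in WT 3 and 10.86 to 11.25 in TFEB KO muscle. Fibroblast and adipocyte markers had 0 genes past the test, with means of 10.74 to 11.07 against 10.62 to 11.44 and of 8.19 to 8.73 against 8.37 to 9.93. The part of these cells in the values of the members was not tested.

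For each member the gene with the most similar profile over the 6 arrays was found, by the root mean square difference of the standardised values of the brightest probe sets among 12393 genes, where a lower value is more alike. For Mfn1 this was Camk2g, at 0.086, and for Mfn2 it was Sh3bp5l, at 0.050. Opa1 was most like Ugp2, at 0.072, and Parl most like Tufm, at 0.103. Tufm, a mitochondrial elongation factor, differed by -0.45 between groups (adjusted p = 0.051). Rhot1 was nearest to Tmem63a, at 0.10, Rhot2 to Cdc37, at 0.126, Fis1 to Akap9, at 0.144, and Dnm1l to Trappc3, at 0.149. These likenesses are descriptions over 6 arrays that share the same 2 groups.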

How the data were processed

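Muscle RNA of 3 WT and 3 TFEB KO mice was measured on 1 Affymetrix array each. The deposited log2 values came from RMA, run by the authors with the R package affy, and the sources used here give no version or settings. RMA gives the probe intensities of all arrays, though not the summarised probe set values, one distribution. Differences are therefore relative to the array as a whole, and RMA is known to compress low signals. Levels of probe sets of different genes were not compared as amounts of RNA, and the brightest probe set of a gene is the one with the highest mean log2 value over the 6 arrays. Arrays give no depth, and their number limits the precision.

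Of 22690 probe sets, 64 controls were left out and 22626 tested with limma 3.58.1 (lmFit, eBayes) under R 4.3.3. Tests were two-sided, and p-values were adjusted over all of them by Benjamini-Hochberg with a threshold of 0.05. The code was tested on simulated data. Tables were made with pandas 2.3.3 and NumPy 2.4.6 in Python 3.11.15 and drawn with matplotlib 3.10.9. Gene names are those of the platform annotation, which gives 1 symbol to 20380 probe sets, and promoters were matched by symbol.

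The genes named are all members, Tfeb, and of each other list up to 4 called genes or, where 0 were called, the 2 with the smallest p, plus the gene nearest in profile to each member. The members and lists were chosen with earlier results of these data known. The CCGGAAGT motif and the 4 within-array contrasts were chosen after values or windows had been seen. Alternatives were a second quantile normalization, a 75th percentile shift, a filter on dim probe sets, trended and robust moderation, array weights, a replicate block, the methods' t-test, control probe sets kept, 1 averaged value per gene, and leaving out each array. The methods' t-test is the two-tailed Student's t-test, which the main text of the study names without tying it to the arrays.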

Additional observations from a re-analysis of the deposited data

How the results depend on the processing

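The median difference of the members stayed below 0 in all 15 alternatives, but the number of their probe sets past the test, 0 as reported, did not hold in 5 of them. It was 2 after a second quantile normalization (Rhot2, adjusted p = 0.047, and Parl, 0.049), 2 with trended and robust moderation (0.048 and 0.046), 1 with array weights (Rhot2, 0.048) and 2 genes with 1 averaged value per gene (Rhot2 and Parl). With 1 array left out it was 0 to 1, the 1 being Dnm1l on 1452638_s_at without TFEB KO 1. The median of -0.29 became -0.36 without dim probe sets and lay between -0.39 and -0.27 with 1 array left out. The 9 probe sets lower at an unadjusted p under 0.05 became 6 to 8 with 1 array left out and 7 by the methods' t-test, which called 0 after adjustment.

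Of 208 alternative values of single probe sets, 5 turned above 0, all of probe sets that differed by -0.04 to -0.01 in the setting of the report. Dnm1l on 1428008_at was 0.013 without WT 1 and 0.022 without WT 2, within -0.167 to 0.022 over the arrays left out. Dnm1l on 1428086_at was 0.0099 without WT 2 and 0.065 without TFEB KO 2, within -0.069 to 0.065. Fis1 was 0.015 without TFEB KO 2, within -0.042 to 0.015. The causes were not tested.

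The labels give both groups replicate numbers 1 to 3. Arrays of the same number correlated in their deviations from the group means at 0.088, 0.048 and 0.265. Correlations of arrays of different number were not set beside these, so the values do not decide whether the numbers pair the mice. The setting of the report did not pair them. With the number as a replicate block, 0 member probe sets passed, 8 were lower at an unadjusted p under 0.05, the median was -0.29 and the lowest adjusted p of a member was 0.071, while 297 of all probe sets passed against 361 without the block.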
